A study of Mus musculus with 12 samples.

Results

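The genes described here are 46 mouse genes of the antioxidant, glutathione and detoxification systems. They were taken from a list of names, with no cut on a measured value, though earlier results of these data were known when the list was made, and were read from array probe sets whose only annotated gene symbol was one of these genes. Of the 46, 43 had such a probe set (83 probe sets, 75 of them tested), and 42 passed the filter on low signal and were tested, out of 13068 tested genes among 18193 named on the array. They fall into 12 glutathione transferases, 9 glutathione peroxidases and enzymes of glutathione synthesis, 13 genes of the superoxide and thioredoxin systems, and 12 genes linked to the transcription factors AhR and Nrf2.

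The study measured RNA in side population (SP) cells from mouse muscle, the cells that a sort gate selects because they pump out a DNA-binding dye. The groups were EOM, SP cells of the extraocular muscles that move the eye (6 arrays), and TA, SP cells of the tibialis anterior, a hindlimb muscle (6 arrays). Each array held a separately isolated preparation of cells, amplified in a pair of rounds before labelling, and neither a treatment nor a genetic change is named for either group. The labels used here name no strain, age or sex and no number of mice per preparation, and a sorted SP preparation can hold several cell types.

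Cells meet reactive oxygen with a chain of enzymes. Superoxide dismutases turn superoxide into hydrogen peroxide, and catalase, glutathione peroxidases and peroxiredoxins remove the peroxide, the last 2 families drawing on glutathione and on thioredoxin. Glutathione transferases join glutathione to reactive compounds so that they can be exported. Nrf2, held down by Keap1 in resting cells, switches on many of these genes through antioxidant response elements, while AhR, a receptor for aromatic compounds, switches on cytochrome P450 genes through xenobiotic response elements.

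The short DNA words that Nrf2 and AhR are known to bind were searched in the 250 bases before each gene start, with promoters from RefSeq (build GRCm38.p6). Promoters of 38 members were in that table (47 promoters, since some genes have several). The 3 shown next hold a match to the core of the antioxidant response element, TGACNNNGC or TGAGNNNGC on either strand, in capitals; Srxn1 and Txnrd1 were past the test threshold in the comparison below, and Gclm was not.
Srxn1, chr2:152105274-152105523, plus strand: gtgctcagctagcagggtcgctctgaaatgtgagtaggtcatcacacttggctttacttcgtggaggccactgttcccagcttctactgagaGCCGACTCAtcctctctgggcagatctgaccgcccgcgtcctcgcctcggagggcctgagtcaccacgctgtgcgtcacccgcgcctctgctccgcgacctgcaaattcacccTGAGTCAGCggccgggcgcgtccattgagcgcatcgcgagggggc
Txnrd1, chr10:82858956-82859205, plus strand: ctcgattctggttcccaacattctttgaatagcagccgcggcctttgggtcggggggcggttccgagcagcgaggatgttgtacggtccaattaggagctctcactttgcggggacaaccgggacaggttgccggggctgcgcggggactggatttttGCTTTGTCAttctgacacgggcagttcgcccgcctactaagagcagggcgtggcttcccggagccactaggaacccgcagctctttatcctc
Gclm, chr3:122245307-122245556, plus strand: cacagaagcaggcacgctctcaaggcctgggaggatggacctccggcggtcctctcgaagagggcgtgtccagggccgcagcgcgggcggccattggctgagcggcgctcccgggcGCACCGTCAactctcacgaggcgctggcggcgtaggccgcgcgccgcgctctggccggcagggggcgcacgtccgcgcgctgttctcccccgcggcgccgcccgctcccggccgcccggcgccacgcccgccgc
Cyp1b1, the cytochrome P450 among the members, is shown for the core of the xenobiotic response element, GCGTG on either strand, which begins 76 bases before its start.
Cyp1b1, chr17:79715062-79715311, minus strand: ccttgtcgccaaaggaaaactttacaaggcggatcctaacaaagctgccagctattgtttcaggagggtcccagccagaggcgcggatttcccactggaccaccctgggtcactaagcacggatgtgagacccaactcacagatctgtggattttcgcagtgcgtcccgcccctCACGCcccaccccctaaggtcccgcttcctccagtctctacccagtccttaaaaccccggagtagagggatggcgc

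Srxn1 held 2 matches, beginning 158 and 45 bases before its start, Txnrd1 held 1 in 1 of its 3 listed promoters, and Gclm held 1. No match in capitals overlapped a match to the other word. Over the members, 11 of 47 promoters (23.4%) held the antioxidant element core, against 23.0% of all 32851 promoters. That comparison turns on how the core is written: with TGACNNNGC alone it was 9 of 47 (19.1%) against 10.2%, and with TGAGNNNGC alone 3 of 47 (6.38%) against 14.4%. The search was first run with TGACNNNGC alone over 300 bases that run past the start, where it gave 10 of 47 (21.3%) against 12.4%, and the wider spelling and the shorter window were adopted after that count was seen. The xenobiotic element core was in 24 of 47 member promoters (51.1%) against 28.2% of all, its extended form TNGCGTG in 0 of 47 against 4.1%, and the metal response element (TGCACNC or TGCGCNC) in 12 of 47 (25.5%) against 21.4%. Member windows also held more G and C (median 57.6%, against 52.4% over all promoters), and the part of base composition in these shares was not tested. The window of Nqo1, a much used Nrf2 target, held none of the 4 words. Of the 9 members called higher below, 5 had a promoter in the table. Of these, Srxn1 and Txnrd1 held the antioxidant core, and Cyp1b1, Srxn1 and Txnrd1 the xenobiotic core. Both matches of Srxn1 have the spelling TGAGNNNGC, which was adopted after the first count was seen. With TGACNNNGC alone Srxn1 held none in this window, and Txnrd1 kept its match. Over all promoters the shares were 23.0% for the antioxidant core and 28.2% for the xenobiotic core. A match is a description of the letters in this window only.

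Some arrays stood apart before any comparison. EOM replicate 1 (EOM 1) had a median signal of 87.2, TA 3 of 69.6 and TA 5 of 63.2, against 31.2 to 43.4 on the other 9 arrays, and beta-actin probe sets at the 3′ end of the transcript outshone those at the 5′ end by a ratio of 104.2, 165.3 and 100.2 on them and 5.272 to 68.62 on the others. The same ratio for Gapdh did not set them apart together: it was 9.877 on EOM 1, the lowest of the EOM arrays, 17.33 on TA 3, within the TA range, and 34.49 on TA 5, the highest of all. Markers of several other cell types, not of all those read, differed between the groups. Of 13 endothelial markers tested 0 rose and 11 fell (median log2 difference -2.99, summed signal 1611 to 2906 in EOM and 12536 to 30952 in TA). Of 10 pericyte and smooth muscle markers 0 rose and 8 fell (-2.36, 3343 to 5930 and 15401 to 31588). Of 13 fibroblast markers 6 rose and 0 fell (1.18, 125867 to 171891 and 72394 to 126439). Of 9 macrophage markers 4 fell (-2.07, 273.8 to 1613 and 1071 to 7440) and of 6 pan-leukocyte markers 5 fell (-2.24, 331.3 to 4115 and 4249 to 9653), and of 6 side population markers 4 fell (-1.81, 1070 to 2642 and 4305 to 10608), among them Abcg2, the dye pump. Of 6 myogenic and myofibre markers tested 0 rose and 1 fell (-0.57), and of 4 Schwann and neural markers 0 passed in either direction (-0.04). Of 5 erythroid markers 0 were tested. No marker was listed at 0. The part of these cell types and of these array measures in the results below was not tested, and in preparations of mixed cells fewer cells of a type and less RNA per cell cannot be told apart.

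Of the 42 tested members, 9 were higher in EOM (21.4%) and 2 were lower (4.76%), against 4.05% higher and 6.81% lower among all 13068 tested genes (limma, Benjamini-Hochberg adjusted p under 0.05) and 3.2% and 5.03% among the 27023 tested probe sets. The members higher in EOM were Gsta4, Cyp1b1, Sod3, Hmox1, Txnrd1, Gpx8, Srxn1, Gclc and Prdx4, and those lower were Mgst2 and Gstt2. The median log2 difference was 0.47 over the tested members and -0.04 over all tested genes. All 6 EOM arrays lay above all 6 TA arrays for 5 members (2.33% of all genes) and below them for 1 (4.8%). Without EOM 1 the counts became 18 higher and 4 lower of 42, against 10.0% and 10.5% of all genes, with the 9 and the 2 among them. Without EOM 1, TA 3 and TA 5 they were 17 and 4, against 10.6% and 11.2% of all genes. The 4 lower were near the share of all genes in both fits. Differences are EOM minus TA on the log2(signal + 16) scale with their standard errors, and this scale understates the change of genes with low signal.

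**Figure D1:**
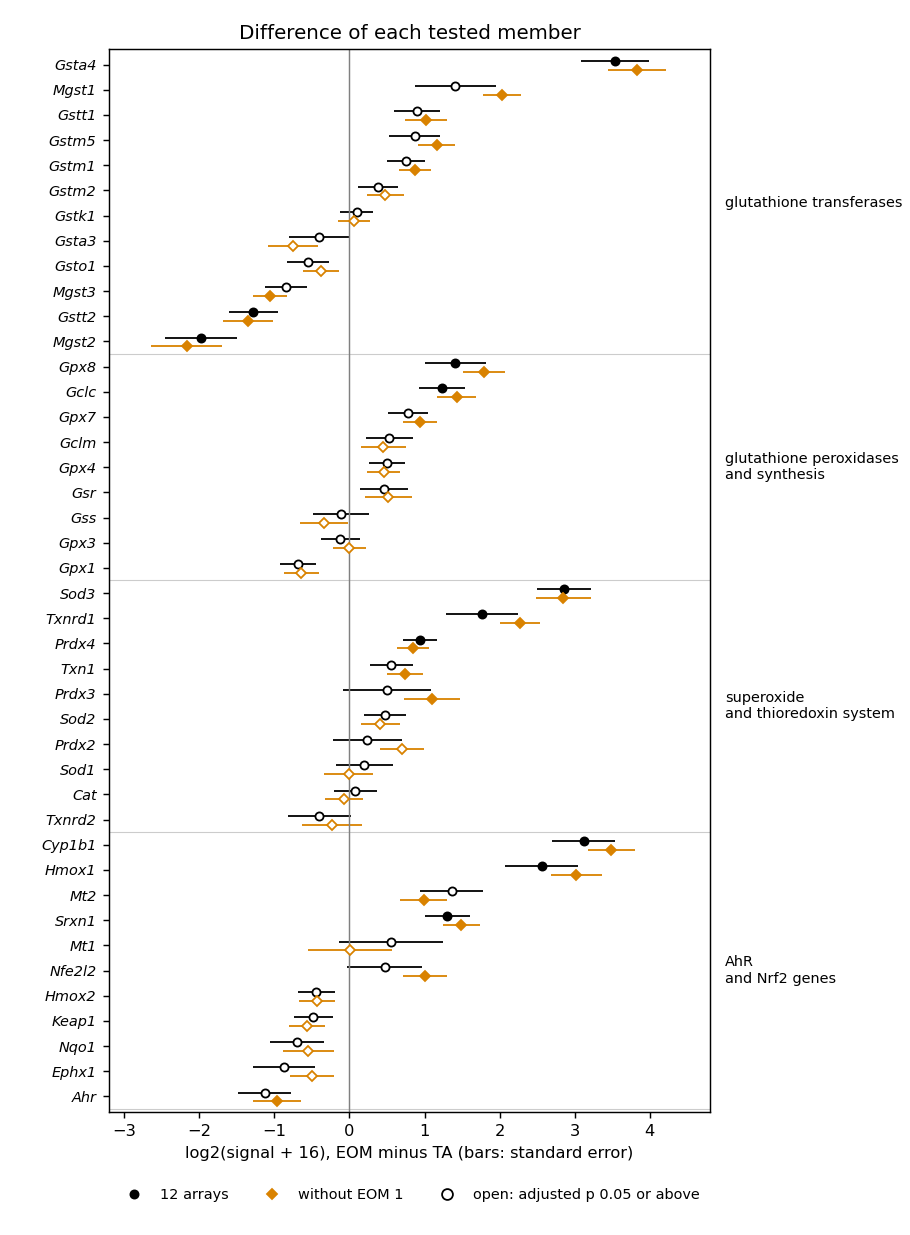
Difference of each of the 42 tested members, EOM minus TA on the log2(signal + 16) scale, with bars for the standard error, ordered within the 4 groups of genes. Circles are the fit to 12 arrays and diamonds the fit without EOM 1, filled where the adjusted p is under 0.05; the largest positive difference is that of Gsta4 (3.54) and the largest negative that of Mgst2 (-1.98).

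Of the 12 glutathione transferases, all tested, Gsta4 rose, Mgst2 and Gstt2 fell, and 9 did not pass (median log2 difference 0.24). These were 8.33% higher and 16.7% lower, against 4.05% and 6.81% of all genes. Gsta4, the transferase that clears the lipid peroxidation product 4-hydroxynonenal, had signals of 199.1, 660.45 and 868.5 (lowest, median and highest) in EOM, against 2.8, 54.3 and 86.4 in TA. Every EOM array was above every TA array, and the lowest EOM value was on EOM 1. The means were 638 ± 247 in EOM and 45.6 ± 34.6 in TA (SD, n = 6 each), a log2 difference of 3.54 ± 0.45 (limma, adjusted p = 4.32e-05). Mgst2, a membrane-bound transferase, had signals of 4.6, 29.25 and 124.8 in EOM, against 86.8, 163.2 and 406.2 in TA. Of the 6 EOM arrays, 5 were below the lowest TA array, and the EOM arrays were widely spread. The log2 difference was -1.98 ± 0.48 (limma, adjusted p = 0.0136). Gstt2, a theta-class transferase, had 49.3, 95.7 and 109.9 in EOM, against 134.3, 178.05 and 500.8 in TA, so that all EOM arrays were below all TA arrays. Its log2 difference was -1.28 ± 0.33 (limma, adjusted p = 0.0206). The call was lost when EOM 0 (adjusted p = 0.0609), EOM 6 (0.056) or TA 5 (0.056) was left out.

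Within the membrane-bound family the estimates pointed in different directions. Mgst1, the microsomal transferase that also reduces lipid peroxides, had 240.3, 3357.3 and 3660.9 in EOM and 434.1, 934.8 and 1180.9 in TA. The lowest EOM value was EOM 1, and the other 5 EOM arrays, from 2784.3 upward, all lay above the TA arrays. With 12 arrays its log2 difference was 1.41 ± 0.54 (limma, adjusted p = 0.129), and without EOM 1 it was 2.03 ± 0.25 (adjusted p = 1.2e-05), since the SD of the EOM arrays on the log2 scale was 1.52 with EOM 1 and 0.16 without it. Mgst3 had 57.8, 80.2 and 212.7 in EOM and 152.0, 174.6 and 229.8 in TA, with EOM 1 the highest EOM array. Its log2 difference was -0.85 ± 0.28 with 12 arrays (limma, adjusted p = 0.0773) and -1.06 ± 0.23 without EOM 1 (adjusted p = 0.00302).

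The mu-class genes Gstm2 and Gstm1 are adjacent on chromosome 3, with Gstm5 nearby, and the estimates of all 3 were positive without passing the threshold. Gstm1 had 1247.7, 1920.0 and 2845.5 in EOM and 930.0, 1067.45 and 1651.2 in TA (log2 difference 0.75 ± 0.25, limma, adjusted p = 0.0722). Of its 4 tested probe sets 1 passed, at 0.85. Gstm5 had 125.5, 447.85 and 495.9 in EOM and 109.4, 201.5 and 319.5 in TA (0.87 ± 0.34, adjusted p = 0.139), and 5 of the 6 EOM arrays were above the highest TA array. Without EOM 1 both passed, Gstm1 at 0.87 (limma, adjusted p = 0.00712) and Gstm5 at 1.16 (adjusted p = 0.00352). Near-identical mu-class genes can share probes, so a signal credited to 1 of them may hold RNA of another. Gstt1, which lies 1 gene away from Gstt2 on chromosome 10, was opposite in sign to it: 954.6, 1561.5 and 1800.6 in EOM and 549.5, 651.35 and 1967.5 in TA, with the highest TA value on TA 3. Its log2 difference was 0.90 ± 0.30 (limma, adjusted p = 0.0836), and it was 1.02 without EOM 1 (adjusted p = 0.0164) and 1.16 without TA 3 (adjusted p = 0.00503). Gstm2 (0.38), Gstk1 (0.10), Gsta3 (-0.40) and Gsto1 (-0.55) did not pass with 12 arrays or without EOM 1, where Gsta3 had -0.75.

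Among the glutathione peroxidases and synthesis enzymes, 2 of 9 tested rose and 0 fell (median log2 difference 0.50). The share higher was 22.2%, against 4.05% of all genes, and 6.81% of all genes were lower. With so few genes, 0 lower does not set a group apart, here and in the groups below. Gclc, the catalytic subunit of glutamate-cysteine ligase, which sets the rate of glutathione synthesis, had 561.2, 1223.9 and 1568.3 in EOM, against 241.7, 531.35 and 708.0 in TA. Of the EOM arrays 5 were above the highest TA array and EOM 1 lay among the TA values. The means were 1175 ± 372 in EOM and 493 ± 171 in TA (SD, n = 6 each), a log2 difference of 1.23 ± 0.31 (limma, adjusted p = 0.0154), and its second probe set passed as well, at 1.34. With median centring of the arrays the difference was 1.33 and no longer passed (adjusted p = 0.0901). The partner subunit Gclm had 358.4, 662.25 and 886.7 in EOM and 206.5, 487.7 and 675.7 in TA, with overlapping groups, and its difference of 0.53 ± 0.31 did not pass (limma, adjusted p = 0.389). The later enzymes of the pathway, Gss, which completes the tripeptide (-0.11), and Gsr, which reduces oxidised glutathione (0.46), did not pass either.

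Gpx8, a peroxidase of the endoplasmic reticulum, had 222.2, 1143.45 and 1190.7 in EOM, against 179.9, 344.35 and 556.1 in TA. The 5 EOM arrays other than EOM 1 were tightly placed, from 1092.8 to 1190.7, and all lay above the TA arrays, while EOM 1 lay among them. The log2 difference was 1.41 ± 0.41 (limma, adjusted p = 0.0396), and this call is fragile: it was lost in 13 of 25 alternatives, among them the omission of EOM 0 (0.0973), EOM 2 (0.093), EOM 3 (0.0924), EOM 5 (0.0855), EOM 6 (0.0872), TA 1 (0.0505), TA 2 (0.087), TA 3 (0.0835) or TA 5 (0.102), and quantile normalization (0.059). Gpx7, its relative in the same compartment, had 203.7, 387.1 and 504.5 in EOM and 113.2, 231.5 and 262.0 in TA. Its difference of 0.78 ± 0.27 did not pass with 12 arrays (limma, adjusted p = 0.0943) and passed at 0.94 without EOM 1 (adjusted p = 0.00886). Gpx1, the abundant cytosolic peroxidase, ran the other way, with 813.5, 961.1 and 1206.1 in EOM and 1187.1, 1446.85 and 2546.0 in TA. Of the 6 EOM arrays 5 were below the lowest TA array, and the difference of -0.69 ± 0.24 did not pass (limma, adjusted p = 0.0986). Gpx4, which protects membranes from lipid peroxides (0.50), and Gpx3, the secreted plasma form (-0.12), did not pass.

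**Figure D2:**
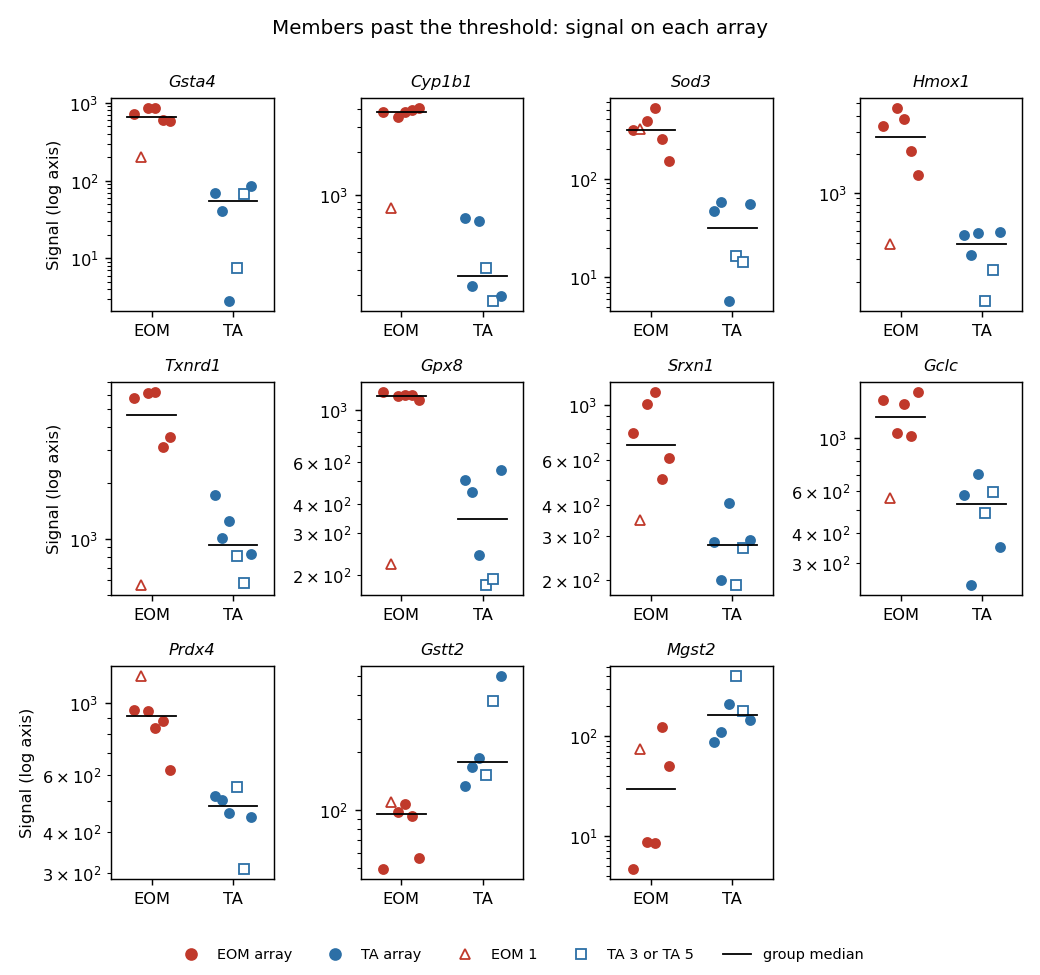
Signal of the 11 members past the threshold on each array, on log axes that differ between panels, EOM left and TA right, with the group median as a bar. Open triangles are EOM 1 and open squares TA 3 and TA 5; EOM 1 lies among the TA values for Gclc, Gpx8, Hmox1 and Srxn1, and below all of them for Txnrd1.

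Of the superoxide and thioredoxin genes, 3 of 10 tested rose (30.0%, against 4.05% of all genes) and 0 fell (against 6.81%), with a median log2 difference of 0.49. Of the dismutases, the extracellular Sod3 rose, and those inside the cell did not pass. Sod3 had 152.2, 312.1 and 522.6 in EOM, against 5.7, 31.55 and 58.0 in TA, and every EOM array was above every TA array, EOM 1 included at 317.4. The means were 323 ± 125 in EOM and 32.8 ± 23.2 in TA (SD, n = 6 each), a log2 difference of 2.86 ± 0.36 (limma, adjusted p = 4.41e-05). The cytosolic Sod1 had 13646.8, 17443.6 and 40504.8 in EOM and 6947.7, 16777.1 and 38003.0 in TA, a difference of 0.20 ± 0.38, and its 4 tested probe sets differed in sign, from -0.55 to 0.77. Its highest values stood on EOM 1 and TA 3, both among the 3 arrays that stood apart, whereas on another bright probe set EOM 1 was the lowest EOM array (4595.7, against 7541.9 to 12394.0). The mitochondrial Sod2 had a difference of 0.47 ± 0.28, with probe sets from -0.39 to 0.83, and catalase, Cat, one of 0.08 ± 0.29.

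Txnrd1, the cytosolic reductase that recharges thioredoxin, had 560.5, 4630.25 and 6221.0 in EOM, against 576.5, 922.6 and 1718.9 in TA. EOM 1 was below every TA array, and the other 5 EOM arrays, from 3120.7 upward, were above every TA array. The means were 4212 ± 2234 in EOM and 1034 ± 405 in TA (SD, n = 6 each), a log2 difference of 1.76 ± 0.48 (limma, adjusted p = 0.0279), and all 3 of its probe sets passed, at 1.76 to 2.22. The low value of EOM 1 belongs to this probe set alone: on the other 2, which are dimmer, EOM 1 was the highest EOM array, at 1186.4 (against 151.5 to 692.4 on the other EOM arrays) and 239.4 (against 21.8 to 170.3). The call was lost, with adjusted p between 0.0525 and 0.0774, when any of EOM 0, EOM 2, EOM 3, EOM 6, TA 1, TA 3, TA 5 or TA 6 was left out, and the difference was 2.27 without EOM 1. Its substrate thioredoxin, Txn1, had 5530.5, 10740.25 and 13603.4 in EOM and 3760.6, 8212.7 and 8426.3 in TA, a difference of 0.56 ± 0.29 that did not pass (limma, adjusted p = 0.31) and that passed at 0.74 without EOM 1 (adjusted p = 0.0404). The mitochondrial reductase Txnrd2 had an estimate of -0.40 ± 0.42 and did not pass.

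Prdx4, the peroxiredoxin of the endoplasmic reticulum, had 621.5, 908.0 and 1210.4 in EOM, against 307.3, 481.15 and 549.3 in TA, and the groups did not overlap. The log2 difference was 0.94 ± 0.23 (limma, adjusted p = 0.0154), the smallest among the members that passed. Its other 2 probe sets had differences of 0.13 and 0.60 and did not pass, and the mean of the 3 gave 0.56 (adjusted p = 0.0918). The mitochondrial Prdx3 had 12.8, 311.4 and 407.8 in EOM and 69.6, 146.2 and 377.3 in TA, with EOM 1 far below the other EOM arrays, from 252.3 upward. Its difference was 0.50 ± 0.58 (limma, adjusted p = 0.735) and 1.10 ± 0.37 without EOM 1 (adjusted p = 0.0476). Prdx2, the cytosolic form, had 0.24 ± 0.46, and 0.70 ± 0.29 without EOM 1 (limma, adjusted p = 0.113). Prdx1 was read only by 5 probe sets shared with Gm21399, and Prdx5 and Prdx6 had no probe set of their own in the annotation used, so none of these was analysed here.

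Among the genes tied to AhR and Nrf2, 3 of 11 tested rose (27.3%, against 4.05% of all genes) and 0 fell (against 6.81%), with a median log2 difference of 0.47. Of the classical Nrf2 targets, Hmox1, the inducible haem oxygenase, which breaks haem into biliverdin, iron and carbon monoxide, had 399.5, 2703.6 and 4617.2 in EOM, against 140.9, 396.4 and 493.1 in TA. EOM 1 lay within the TA values and the other 5 EOM arrays, from 1383.8 upward, above them. The means were 2591 ± 1578 in EOM and 359 ± 146 in TA (SD, n = 6 each), a log2 difference of 2.56 ± 0.49 (limma, adjusted p = 0.00211). Hmox2, the constitutive form, had 252.3, 312.9 and 431.6 in EOM and 309.3, 429.5 and 649.0 in TA, and its estimate of -0.44 ± 0.25 did not pass. Srxn1, sulfiredoxin, which repairs overoxidised peroxiredoxins, had 346.9, 689.6 and 1125.8 in EOM, against 190.5, 275.8 and 406.2 in TA. Only EOM 1 of the EOM arrays fell within the TA range, and the log2 difference was 1.30 ± 0.30 (limma, adjusted p = 0.00893). Its other 3 tested probe sets had smaller differences, down to 0.12, and the mean of the 4 gave 0.73 (adjusted p = 0.0572). With median centring the difference was 1.39 and no longer passed (limma, adjusted p = 0.0927).

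Nqo1, the quinone reductase often used as a readout of Nrf2, was low on all arrays, with 15.4, 42.5 and 70.1 in EOM and 36.2, 67.75 and 141.6 in TA. Its estimate of -0.70 ± 0.36 was negative and did not pass (limma, adjusted p = 0.30). With Srxn1, Txnrd1, Gclc and Hmox1 higher and Nqo1 and Gclm not past the threshold, the well known Nrf2 targets among the members were not all called. Nfe2l2, the gene of Nrf2 itself, had 348.4, 3121.1 and 4604.9 in EOM and 673.5, 2021.75 and 2343.3 in TA. EOM 1 was below all TA arrays and the other 5 EOM arrays, from 2475.4 upward, above them, so the difference was 0.47 ± 0.50 with 12 arrays (limma, adjusted p = 0.705) and 1.01 ± 0.29 without EOM 1 (adjusted p = 0.021). Its second probe set had -0.48. Keap1, its inhibitor, had 195.3, 242.35 and 328.6 in EOM and 220.3, 408.85 and 494.5 in TA (-0.48 ± 0.26, limma, adjusted p = 0.319).

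The metallothioneins Mt1 and Mt2, small metal-binding proteins, are adjacent on chromosome 8. Mt2 had 10315.7, 14019.85 and 61313.4 in EOM, against 2562.4, 7965.75 and 9961.2 in TA, and the groups did not overlap. Its difference of 1.36 ± 0.42 missed the threshold (limma, adjusted p = 0.0586), with the highest EOM value on EOM 1 and the lowest TA value on TA 5, and was 0.99 without EOM 1 (adjusted p = 0.0334). Mt1 had 3723.9, 11085.75 and 77317.6 in EOM and 2869.4, 7333.95 and 49741.5 in TA, with the highest values on EOM 1 and TA 3. Its difference was 0.55 ± 0.69 (limma, adjusted p = 0.764) and 0.01 without EOM 1.

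The largest difference among the genes tied to AhR and Nrf2 was that of a cytochrome. Cyp1b1, a cytochrome P450 that oxidises aromatic compounds, steroids and retinoids, had 811.3, 3817.7 and 4108.9 in EOM, against 180.1, 271.05 and 688.8 in TA. All EOM arrays were above all TA arrays, and the 5 other than EOM 1 lay between 3519.0 and 4108.9. The means were 3336 ± 1252 in EOM and 378 ± 234 in TA (SD, n = 6 each), a log2 difference of 3.12 ± 0.42 (limma, adjusted p = 8.66e-05), and the second probe set passed at 2.33. Cyp1a1, a cytochrome that is a textbook AhR target and is not one of the 46 genes, ran the other way, with 2.4, 14.0 and 31.8 in EOM and 81.7, 154.2 and 182.6 in TA. All its EOM arrays were below all TA arrays (log2 difference -2.45 ± 0.33, limma, adjusted p = 7.15e-05), so these 2 cytochromes of 1 family were called in opposite directions. Ahr itself had 114.1, 216.5 and 375.9 in EOM and 224.6, 575.75 and 786.8 in TA. Its difference of -1.13 ± 0.35 just missed the threshold (limma, adjusted p = 0.0523), passed in 8 of 25 alternatives, and its second probe set had -0.01. Without EOM 1 it was -0.97 (adjusted p = 0.0453), without EOM 6 -1.29 (0.0378) and without TA 3 -1.34 (0.0158). Ephx1, the microsomal epoxide hydrolase, had 248.5, 1110.4 and 2121.9 in EOM and 1210.2, 1722.35 and 2298.5 in TA (-0.87 ± 0.41, limma, adjusted p = 0.241), and -0.50 ± 0.29 without EOM 1 (adjusted p = 0.263). Cbr2, a carbonyl reductase, was under the signal filter, with 2.4, 3.70 and 22.5 in EOM and 17.3, 41.75 and 76.4 in TA, and was not tested.

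**Figure D3:**
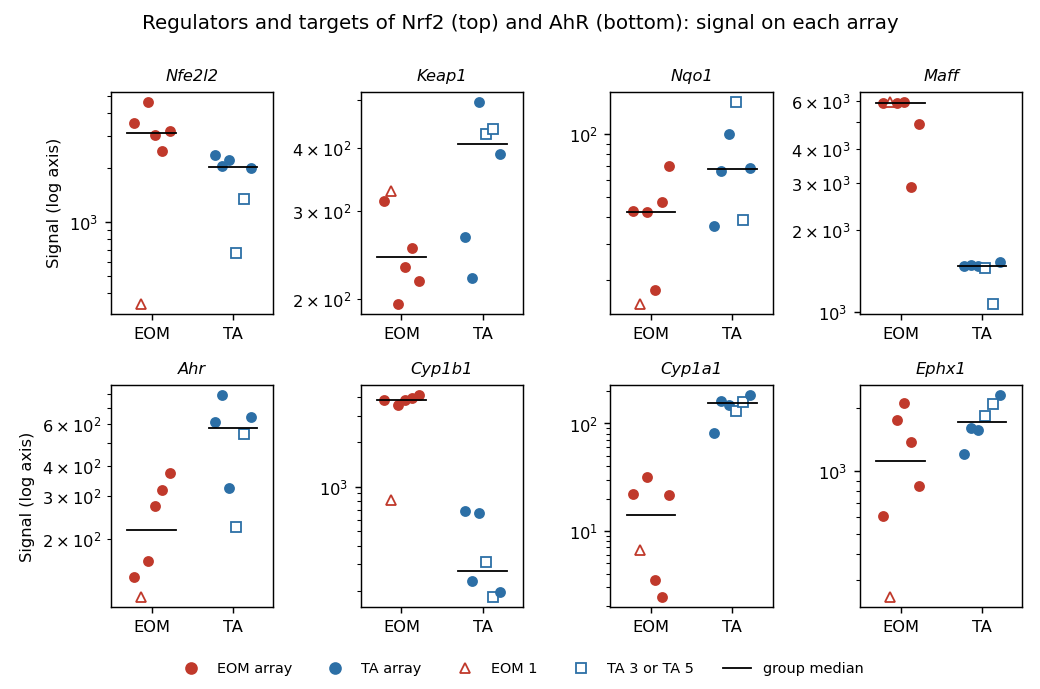
Signal on each array of Nrf2 pathway genes (top: Nfe2l2, Keap1, Nqo1, Maff) and AhR pathway genes (bottom: Ahr, Cyp1b1, Cyp1a1, Ephx1), on log axes that differ between panels, EOM left and TA right, with the group median as a bar and EOM 1, TA 3 and TA 5 as open symbols. Cyp1b1 was higher on all EOM arrays and Cyp1a1 lower on all of them, and Ahr overlapped between the groups.

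EOM 1 widened the spread within EOM for most members, not for all. Of the 42 tested, 34 had a smaller SD of the EOM arrays on the log2 scale without EOM 1 and 8 did not, and the median SD was 0.56 with it and 0.26 without it. EOM 1 was the lowest EOM array for 24 of the 42 members and the highest for 10, and its median departure from the other EOM arrays was -0.74 on the log2 scale. The other EOM arrays were the lowest for 2 to 5 members each, and EOM 3 was also the highest for 10. Leaving out the lowest or highest array of a group usually lowers its SD. No share over all genes is given beside these counts, so they do not show a trait particular to the members. The SD with and without EOM 1 was 0.93 and 0.04 for Gpx8, 0.91 and 0.08 for Cyp1b1, 1.31 and 0.48 for Txnrd1, and 1.33 and 0.33 for Nfe2l2. It was 1.62 and 1.04 for Mt1, 1.17 and 1.2 for Mgst2, 0.57 and 0.63 for Sod3, and 0.41 and 0.42 for Gstt2, so there the other arrays also differed.

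**Figure D4:**
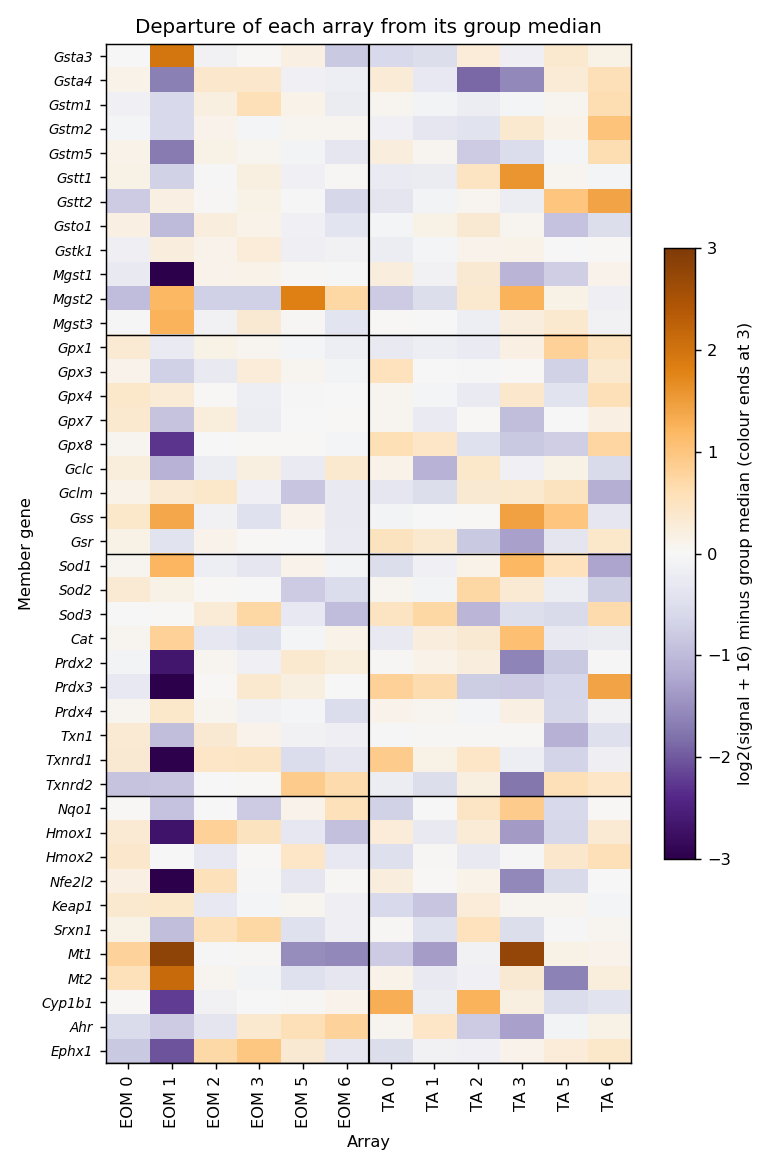
Departure of each array (columns) from its own group median for the 42 tested members (rows), on the log2(signal + 16) scale, with colours ending at 3 in either direction. EOM 1 is the lowest EOM array in 24 rows and the highest in 10, departing downward for genes such as Mgst1, Prdx3 and Nfe2l2 and upward for Gsta3, Mt1 and Sod1.

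Beyond the 46 genes, 101 entries of 5 lists of related enzymes and partners were read, of which 76 were tested, 5 rose (6.58%, against 4.05% of all genes) and 4 fell (5.26%, against 6.81%), with a median log2 difference of 0.17. With 12 arrays these shares are near those of all genes. Without EOM 1, 19 of the 76 rose and 6 fell, against 10.0% and 10.5% of all genes. The share that rose then lay above that of all genes, and the share that fell below it. Of 15 tested glutathione enzymes outside the members, only Oplah, which opens 5-oxoproline to glutamate, passed (0.97 ± 0.29, limma, adjusted p = 0.0475), and it was lost in 16 of 25 alternatives. Of 19 tested glutaredoxins, thioredoxin partners and methionine sulfoxide reductases, Sesn2, a stress-induced sestrin, rose: 192.3, 561.9 and 1602.6 in EOM, against 79.4, 206.65 and 236.3 in TA (1.58 ± 0.40, limma, adjusted p = 0.0175, and 0.0508 without TA 5). Of 17 tested Nrf2 partners and genes of NADPH supply, iron and haem handling, Maff, a small Maf protein that pairs with Nrf2, rose, with 2898.1, 5907.6 and 5927.5 in EOM, against 1066.9, 1471.9 and 1523.3 in TA. All its EOM arrays were above all TA arrays (1.85 ± 0.24, limma, adjusted p = 5.55e-05).

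Of 15 tested AhR partners, cytochromes, reductases and hydrolases, 0 rose (against 4.05% of all genes) and 3 fell (20.0%, against 6.81%). They were Cyp1a1, given above, Adh1, an alcohol dehydrogenase (-0.99 ± 0.30, limma, adjusted p = 0.05, just under the threshold before rounding), and Sult1a1, a sulfotransferase (-1.34 ± 0.40, adjusted p = 0.0462). The calls of Adh1 and Sult1a1 were lost in 15 and 14 of 25 alternatives. Of 10 tested superoxide sources, Nox4, an oxidase that makes hydrogen peroxide, rose (189.9, 1165.2 and 1591.1 in EOM, against 79.3, 138.8 and 219.2 in TA, 2.61 ± 0.43, limma, adjusted p = 0.000506), as did Maob, a mitochondrial monoamine oxidase (2.68 ± 0.56, adjusted p = 0.00434). Ncf4, a subunit of the phagocyte oxidase, fell (5.9, 18.15 and 71.8 in EOM, against 43.9, 106.3 and 295.2 in TA, -1.73 ± 0.41, limma, adjusted p = 0.0114). The other tested subunits of that oxidase did not pass: Cybb (-0.52), Ncf1 (-0.60) and Cyba (0.59). Of the leukocyte markers counted above, 4 of 9 macrophage and 5 of 6 pan-leukocyte markers fell, and their part in the difference of Ncf4 was not tested.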

How the data were processed

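The deposited table holds linear signal intensities of 45101 probe sets (64 of them controls) on 12 Affymetrix Mouse 430 2.0 arrays, summarised by the authors with MAS5, per the submitters' processing notes and the labels' protocols. Each array had the same mean of 150 after trimming, so all share 1 scale; no 2 columns were identical and 0 columns were unused. The array's genome build is not given in the sources used here, so only promoters carry coordinates. Groups come from the sample titles; the preparations were separate isolations, per the labels.

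Intensities were transformed to log2(signal + 16), with no further scaling, and probe sets in the lowest 40% by mean log2 value were left untested, which kept 27023. The comparison of EOM with TA used limma 3.58.1 (R 4.3.3; linear models with an intensity trend, two-sided, Benjamini-Hochberg over all tested probe sets, threshold 0.05), and the code was tested on simulated data. A gene was read from its tested probe set with the highest mean, and 34945 probe sets had 1 gene symbol. All members are accounted for, members past the threshold are given in full, and called genes of the related lists are named up to 4 per direction and list. The number of arrays limits the precision. The members and lists were chosen with earlier results of these data known. Some choices were made after a result was seen: the filter was first applied to the mean of the linear signals and then moved to the log2 mean, and the spelling of the antioxidant element and the promoter window were changed, with the counts under each spelling given in the text. Each alternative changed a single choice, namely a constant of 1 or 64, median centring, quantile normalization, other filters, no intensity trend, array weights, a covariate for the beta-actin 3′ to 5′ ratio, a block for the replicate number, averaging over the probe sets of a gene, each array left out, and EOM 1, TA 3 and TA 5 left out together.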

Additional observations from a re-analysis of the deposited data

Results flagged for a closer look

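An array stood far from the others of its group, by the gap to its nearest neighbour against the whole range of the group, in 16 of 84 groups of member values. At 1 in 20, about 4.2 would come from chance if the groups were independent, but all of them come from the same 12 arrays. No share over all genes is given beside this count, so it does not show a trait particular to the members. EOM 1 gave 12 of the 16. It was low for Gsta4 (signal 199.1, against 579.8 to 868.5 on the other EOM arrays), Gstm2 (217.0, against 324.5 to 361.1), Gstm5 (125.5, against 349.2 to 495.9), Mgst1 (240.3, against 2784.3 to 3660.9), Gpx8 (222.2, against 1092.8 to 1190.7), Prdx2 (239.7, against 1440.7 to 2048.2), Prdx3 (12.8, against 252.3 to 407.8), Txnrd1 (560.5, against 3120.7 to 6221.0), Nfe2l2 (348.4, against 2475.4 to 4604.9) and Cyp1b1 (811.3, against 3519.0 to 4108.9). It was high for Gsta3 (133.6, against 6.1 to 28.0) and Sod1 (40504.8, against 13646.8 to 18880.7). The direction depended on the probe set for some genes: on another bright probe set of Sod1 EOM 1 was the lowest EOM array (4595.7, against 7541.9 to 12394.0), and on the other 2 of Txnrd1 it was the highest (1186.4, against 151.5 to 692.4, and 239.4, against 21.8 to 170.3).

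Among the TA arrays, TA 6 was high for Gstm1 (1651.2, against 930.0 to 1137.5) and TA 3 was high for Mt1 (49741.5, against 2869.4 to 8150.6). TA 5 was low for Prdx4 (307.3, against 445.7 to 549.3) and for Mt2 (2562.4, against 6622.5 to 9961.2).

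With the 9 called genes of the related lists the count was 21 of 102 groups, with 5.1 from chance if the groups were independent, which they are not. Maff was low on EOM 5 (2898.1, against 4940.1 to 5927.5 on the other EOM arrays) and on TA 5 (1066.9, against 1455.7 to 1523.3 on the other TA arrays). EOM 1 was low for Sult1a1 (64.9, against 211.9 to 406.3), Nox4 (189.9, against 1067.7 to 1591.1) and Maob (91.9, against 974.0 to 1767.6).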

How the results depend on the processing

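Among the 11 members called with 12 arrays, Gsta4, Cyp1b1, Sod3, Hmox1 and Mgst2 kept their call in all 25 alternatives, and no called member changed sign in any of them. The number of probe sets past the threshold (2225, of which 866 were higher) was 1445 with median centring (555 higher), 5488 with array weights (2616 higher), 4361 without EOM 1 (2128 higher) and 4675 without EOM 1, TA 3 and TA 5 (2256 higher), and it ranged from 1579 to 4361 when single arrays were left out. Members higher (9) became 5 with median centring, 18 with array weights and 17 without those 3 arrays, with a range of 7 to 18 over single arrays left out. Members lower (2) became 1 with median centring and 4 with the lowest 60% not tested, with array weights or without the 3 arrays, with a range of 1 to 4 over single arrays left out (1 without EOM 0 or TA 5, 4 without EOM 1). The filter on the linear mean, which was run before the log2-mean filter replaced it with results already seen, gave 9 higher and 2 lower. With the replicate number as a block, 1632 probe sets passed and members were 7 higher and 1 lower, the calls of Gstt2 (adjusted p = 0.0501, limma), Gpx8 (0.0727) and Prdx4 (0.0561) being lost. Same-numbered arrays showed no common deviation from their group means (correlations of 0.143, -0.255, 0.0276, -0.317, -0.083 and 0.157). Array-wide differences, such as those of EOM 1, also enter these correlations. They cannot decide whether same-numbered preparations shared mice or a sort, and pairing is not settled here. With median centring, which moved the median difference of all probe sets from -0.03 to 0.07, the calls of Gstt2 (-1.19, adjusted p = 0.0887, limma), Gpx8 (1.5, 0.202), Gclc (1.33, 0.0901), Prdx4 (1.03, 0.0647), Txnrd1 (1.85, 0.139) and Srxn1 (1.39, 0.0927) were lost and Mt2 (1.45, 0.0456) was gained; all but that of Gstt2 were larger than with 12 uncentred arrays. Centring subtracts a single value from each array, so it moves every difference by the same amount in the same direction. The larger differences, and the smaller one of Gstt2, follow from that shift. Why the calls were lost was not tested. Genes near background, such as Nqo1 and Cbr2, are limited by signal.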

Other observations

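Some values outside the comparisons above are given without explanation. The signal of Maff was nearly constant within each group on most arrays: EOM 0, 1, 2 and 3 had 5898.1, 5927.5, 5917.1 and 5919.2, and all TA arrays but TA 5 lay between 1455.7 and 1523.3, while EOM 1 departed from its group for many other genes. Gclc and Gsta4, both called higher, lie on chromosome 9 with 4 coding genes between them. Of 21 members with several tested probe sets, 6 (Gsr, Sod1, Sod2, Prdx2, Nfe2l2 and Mt1) had probe sets whose differences had opposite signs, and 0 had calls in both directions. Pi16, a fibroblast marker of the lists above, had the largest difference among those markers (5.55 ± 0.39, limma, adjusted p = 1.88e-07), with 13014.6, 17565.5 and 36102.4 in EOM and 218.6, 249.9 and 977.0 in TA as lowest, median and highest signals. It is the extreme of its list: the 13 fibroblast markers ran from -0.84 to 5.55 with a median of 1.18. Of them 11 had a positive and 2 a negative estimate, and 7 were not called.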
